A study of Mus musculus with 208 samples.

Results

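Arrays of inbred mouse strains differed in how far the RNA of galectin-3 rose in the left ventricle (LV) under chronic β-adrenergic stimulation. Galectin-3 is a lectin that binds β-galactosides and is made in quantity by macrophages. The strains compared here are those with the strongest and the weakest galectin-3 response to isoproterenol (ISO), a non-selective β-adrenergic agonist. The strains were selected on a measured value. Each of 87 strains with both control and ISO arrays was ranked by its ISO minus control difference at ILMN_1223317, the probe of Lgals3 (the gene of galectin-3), on the deposited log2 scale. The 29 strains with the largest differences are called strong responders, the 29 with the lowest are called weak responders, and the 29 between them are called middle strains. The ranking used ISO and control arrays of the same hearts in which all other genes were then compared, so every contrast of strong with weak strains is a description with its replicate error, and a threshold on it only sorts the probes.

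LV RNA of 99 classical inbred and recombinant inbred (RI) strains from the Hybrid Mouse Diversity Panel (HMDP) was hybridized to 208 Illumina MouseRef-8 v2.0 arrays, with single-dye detection, from control and ISO hearts. All mice were females, and the labels give 10 weeks as their age. In the ISO group an osmotic minipump delivered ISO for 3 weeks from 8 to 9 weeks of age, at 30 μg per g of body weight per day by the sample labels and 20 by the design text. Control mice of the same strains received no ISO. The labels name no engineered allele, and the strong and weak groups differ by design only in which strains they hold. Every array held RNA pooled from mice of its strain, so the spread between strains includes genotype, pool and array, and the spread between mice of a strain was not measured. The strong group has 33 control and 30 ISO arrays, the weak group 32 and 32, and the middle strains 35 and 34. Where a strain had several arrays in a condition their mean was taken, and the strain is the replicate (n = 29 in each group).

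Galectin-3 is secreted by macrophages and injured cells, binds glycans on cell surfaces and in the matrix, and is used in the clinic as a blood marker of heart failure and cardiac fibrosis. Sustained β-adrenergic stimulation is known to injure cardiomyocytes, to draw monocytes and macrophages into the myocardium and to activate fibroblasts, which lay down collagen. Macrophages that take up debris and lipid are known to express galectin-3 together with Trem2 and Gpnmb. The gene groups below follow these roles, from macrophages and their signals to fibroblasts and matrix and then to the cardiomyocyte. LV tissue was measured as a whole, so fewer cells of a type and less RNA per cell cannot be told apart.

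Some arrays call for care before the results. The arrays lie on 26 BeadChips, which fall into 3 sets by their numbers (6, 14 and 6 BeadChips). In a check of strain identity over 500 probes, 143 of 196 arrays were most like an array of their own strain in the other condition, but 0 of 28 arrays on BeadChips 12, 19, 23, 24 and 25 were, so their strain labels are in doubt. BeadChip 24 carries 4 strains, BXD-5/TyJ, BXH-6/TyJ, BXH-9/TyJ and BXD-20/TyJ, and all 4 are weak responders. A further 5 arrays had a low connectivity with the rest of the series (under -2.5), namely an ISO array of the strong strain AXB-19/PgnJ, a control array each of the weak strains AXB-4/PgnJ and AXB-6/PgnJ, an ISO array of the weak strain NOD/LtJ and the control array of BXD69/RwwJ, which has no ISO array. The share of probes detected above background was 46.8% ± 1.35 (SD) in control hearts and 46.8% ± 3.42 in ISO hearts of strong strains, against 45.6% ± 3.00 and 46.1% ± 2.60 in weak strains. Results are given with and without these arrays where they moved.

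Labels of the strains, which the ranking did not use, and traits of their arrays were compared between the groups. Which arrays resembled each other best, and which BeadChips are doubtful, came from expression values of these same arrays and not from labels. The strong group held 9 classical strains and the weak group 6 (Fisher's exact test, two-sided, p = 0.55, adjusted p = 0.66 over 5 traits compared). By family, the strong group held 5 AXB/BXA, 12 BXD, 1 BXH and 2 CXB strains, and the weak group 8, 9, 2 and 4 (exact p = 0.66). Traits of the arrays differed more. Of the strong strains 3 had an array in the third set of BeadChips, against 12 of the weak strains (exact p = 0.0148, adjusted p = 0.0738). In 22 strong and 13 weak strains the control and ISO arrays resembled each other best (exact p = 0.0307, adjusted p = 0.0768), and 4 strong and 10 weak strains had an array on a doubtful BeadChip (exact p = 0.123, adjusted p = 0.205). None of the 5 passed after adjustment. With 43 strong against 43 weak strains, the traits of a doubtful BeadChip (adjusted exact p = 0.0105) and of arrays that resembled each other best (adjusted exact p = 0.0085) passed. The part of the BeadChips in the results was not tested beyond the values given beside them.

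Lgals3 was 3.26 ± 0.81 higher in ISO than in control hearts of strong strains on the log2 scale (SD, n = 29), a 9.58-fold difference, with a lowest value of 2.25, a median of 3.01 and a highest of 5.51. In weak strains the difference was 0.02 ± 1.19, with a lowest value of -4.03, a median of 0.36 and a highest of 1.01, and it was above 0 in 20 of 29 strains. Middle strains averaged 1.62 ± 0.38 (3.07-fold). These values are what the ranking used, and the edges were close. AXB-20/PgnJ, the last strong strain, and NZB/BlNJ, the first middle strain, were both at 2.25, and BXD64/RwwJ, the last middle strain, and RIIIS/J, the first weak one, were both at 1.01. The probe was detected on every array of the strong and weak groups.

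The largest response was in CXB-11/HiAJ, where Lgals3 went from a level of 7.28 in control to 12.79 in ISO hearts, followed by BXD66/RwwJ (a difference of 4.89) and BXD55/RwwJ (4.48). At the other end, BXD-5/TyJ had the highest control level of Lgals3 in the weak group, 13.07, and an ISO level of 9.04. The next were BXH-6/TyJ (10.98 in control and 8.43 in ISO hearts) and BXH-9/TyJ (9.38 and 7.14), and all 3 are strains of BeadChip 24. Without that BeadChip the weak strains had a mean difference of 0.39 ± 0.57 (n = 25) and without all doubtful BeadChips one of 0.69 ± 0.77 (n = 24) and a highest of 2.57. In NOD/LtJ and FVB/NJ the ISO arrays left then had levels of 11.33 and 10.64, against 8.75 and 8.31 in control hearts, so both strains lay above 2.25, the lowest strong value. The NOD/LtJ ISO array left is the one of low connectivity (-7.29), with 28.9% of probes detected. Strong strains without the doubtful BeadChips were at 3.18 ± 0.83 (n = 28). A weak response did not always go with a low level. In CXB-3/ByJ Lgals3 was high both in control (12.28) and in ISO hearts (12.55), and RIIIS/J was at 11.20 and 12.21.

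**Figure D1:**
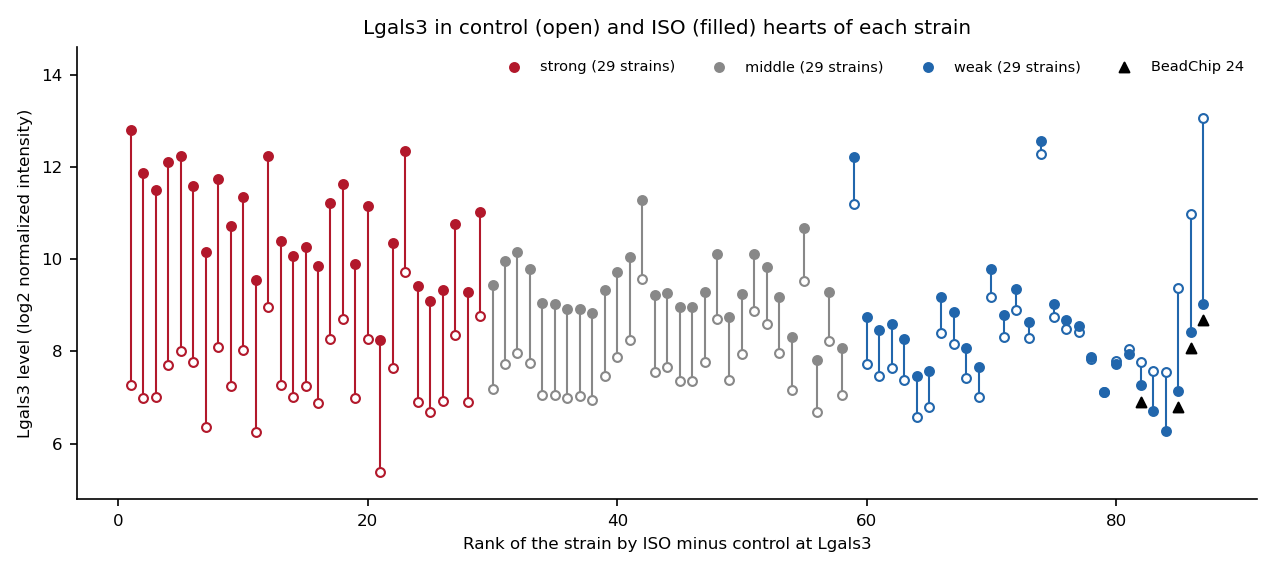
Level of Lgals3 (log2 normalized intensity) in control (open) and ISO hearts (filled) of 87 strains, ranked by their difference, with strong strains in red, middle strains in gray and weak strains in blue; black triangles mark the 4 strains of BeadChip 24. ISO hearts of strong strains lie between 8.25 and 12.79, and the weak strains hold the 3 largest drops, all on BeadChip 24.

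In control hearts Lgals3 averaged 7.51 ± 0.92 in strong strains (5.39 to 9.72, median 7.28) and 8.47 ± 1.57 in weak strains (6.58 to 13.07, median 8.05). In ISO hearts it averaged 10.77 ± 1.15 in strong (8.25 to 12.79, median 10.75) and 8.48 ± 1.36 in weak strains (6.28 to 12.55, median 8.46). The groups thus overlapped at both conditions. Repeat arrays give an idea of how stable the rank of a strain is. In BXD-40/TyJ, a strong strain, the first pair of arrays gave a difference of 3.07 and the second 2.76, while in DBA/2J, a weak strain, they gave 1.24 and -0.33. The second DBA/2J pair lies on BeadChip 19, whose strain labels are in doubt. Among middle strains the pairs gave 1.80 and 1.57 in AXB-8/PgnJ, 1.10 and 1.39 in C57BL/6J, and 1.69 and 1.06 in BXD-32/TyJ.

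The difference of every other probe was then compared between the 29 strong and the 29 weak strains, with limma and Benjamini-Hochberg adjustment over 25696 probes. A probe is said to have passed when its adjusted p-value was under 0.05 and its mean differences in the groups were over 0.2 apart on the log2 scale. The strong minus the weak mean is called the gap, and values in brackets after a mean ± SD are the lowest, median and highest strain. Below, higher or lower in strong strains refers to the gap, unless levels or a change with ISO are named. A gap can come from a different control level as well as from a different ISO level. Of these probes 1947 (7.58%) passed, 1058 (4.12%) with a higher and 889 (3.46%) with a lower ISO minus control difference in strong strains. Since the ranking used this contrast, the shares describe the strains chosen and are no evidence of a response. In 0 of the 1947 were all strong strains beyond all weak strains. The split leaned on the scaling, since with medians aligned in place of quantile normalization 492 passed as higher and 80 as lower. With a covariate for the set of BeadChips 504 were higher and 127 lower. Within the second set (20 strong, 13 weak strains) 360 were higher and 89 lower, within the third (3 and 10) 27 and 4, and within the first (7 and 7) 0 passed in limma, with 881 at an unadjusted p under 0.05. Without the doubtful BeadChips 1215 passed (4.73%), 723 higher (2.81%) and 492 lower (1.91%).

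Within the groups, 2577 probes (10.0%) passed between ISO and control hearts of strong strains, 1350 (5.25%) higher and 1227 (4.78%) lower with ISO. In weak strains 351 (1.37%) passed, 130 (0.506%) higher and 221 (0.860%) lower. Of these, 143 passed in both, 141 in the same direction, which is 5.55% of the strong strains' probes and 40.7% of the weak strains'. Without the doubtful BeadChips the count in weak strains was 1070, and without the arrays of low connectivity 182.

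**Figure D2:**
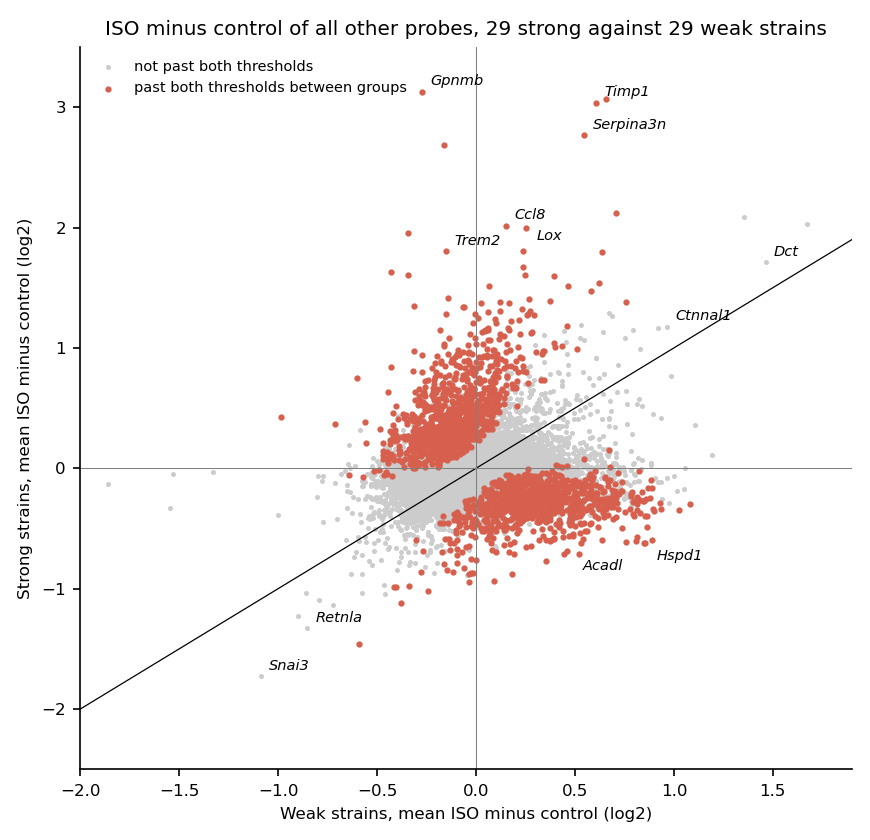
Mean ISO minus control difference (log2) of each probe other than that of Lgals3 in 29 weak (horizontal axis) and 29 strong strains (vertical axis), with the probes that passed between the groups in red and the line of equal differences in black. Gpnmb, Timp1 and Serpina3n lie far above the line, Acadl and Hspd1 below it, and Dct, Ctnnal1, Retnla and Snai3 near it at the ends of the diagonal.

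The largest gap was that of Gpnmb, a membrane glycoprotein of lipid-laden macrophages. Its ISO minus control difference was 3.13 ± 2.01 in strong strains, with a lowest value of 0.07, a median of 2.60 and a highest of 7.65. In weak strains it was -0.27 ± 1.75 (-7.19, 0.14 and 2.07), which leaves strong strains higher by 3.40 (SE 0.49). The lowest value, -7.19, belongs to BXD-5/TyJ, and without BeadChip 24 the gap was 2.95 (SE 0.44). The 3 other Gpnmb probes had gaps of 0.46 to 0.99. The probe of the largest gap was detected on 28 of 33 control and 29 of 30 ISO arrays of strong strains and on 26 and 25 of 32 in weak strains. Trem2, a lipid receptor of phagocytes, showed 1.80 ± 1.11 in strong (0.09, 1.55 and 4.15) and -0.15 ± 1.12 in weak strains (-4.50, 0.01 and 1.85), and was higher in ISO hearts of all 29 strong and 15 weak strains. It was detected on 18 of 33 control and 30 of 30 ISO arrays of strong strains and on 19 and 24 of 32 in weak strains. Mmp12, the macrophage elastase, was detected on 0 of 33 control arrays and 15 of 30 ISO arrays of strong strains and on 4 and 3 of 32 arrays each in weak strains, so its difference is not given as a fold.

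Markers shared by macrophages were higher in strong strains for 12 of 20 genes measured and lower for 0, with a median gap of 0.49, where all 16592 genes (with the brightest probe of each) had a median of 0.01 and 5.20% passed as higher and 3.27% as lower. With ISO, 14 of the 20 were higher in strong and 0 in weak strains, where 6.30% and 0.536% of all genes were. Fcgr2b, the inhibitory Fc receptor, had a difference of 1.23 ± 0.55 in strong strains and 0.21 ± 0.59 in weak strains, a gap of 1.01 (SE 0.15). It was above 0 in all 29 strong strains (0.05, 1.29 and 2.68) and in 21 weak strains (-1.18, 0.15 and 1.38). Laptm5, a lysosomal protein of white blood cells, had a gap of 1.01 (SE 0.14), Tyrobp, the adaptor through which Trem2 signals, one of 1.03 (SE 0.20) and Cd14, a coreceptor for lipopolysaccharide, one of 0.82 (SE 0.13). Adgre1, which encodes the macrophage antigen F4/80, was higher by 0.58 (SE 0.15). Spi1, the transcription factor PU.1, did not pass (0.06), nor did Ptprc (CD45) and Itgam (CD11b), which were detected on at most 2 arrays of any group and condition. The probes of lysozyme, Lyz2, disagreed, with 0.33 (SE 0.35) at the brightest and 1.11 (SE 0.19) at another.

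The summed linear level of the 20 markers had a median of 27000 (12600 to 55900) in ISO hearts of strong strains and 16000 (10600 to 39400) in ISO hearts of weak strains, against 15200 (10700 to 18100) and 14700 (8390 to 36900) in their control hearts. ISO hearts of the strong strains reached the highest sums, yet the ranges overlapped. Without the doubtful BeadChips 8 of the 20 markers passed, and with a covariate for the set of BeadChips 11. Among 15 genes of lipid-associated macrophages 9 were higher, including Lipa, the lysosomal acid lipase (0.81, SE 0.22), Apoe, an apolipoprotein that macrophages secrete (0.54, SE 0.15), and Cd9, a tetraspanin (0.47, SE 0.15). Without the doubtful BeadChips 5 of the 15 passed. Genes of resident and alternatively activated macrophages passed in 5 of 16, all higher, among them Stab1, a scavenger receptor (0.80, SE 0.17), Igf1, a growth factor (0.61, SE 0.17), and Gas6, a ligand of receptors for the uptake of dying cells (0.34, SE 0.06). Without the doubtful BeadChips 3 of the 16 passed. With ISO in strong strains this list was mixed, with 6 members higher, 3 lower and a median difference of 0.01. Over all genes 5.20% passed as higher between the groups.

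Among 8 other galectins and their ligands, Lgals1 alone passed, with 0.45 ± 0.47 in strong and 0.02 ± 0.35 in weak strains (gap 0.43, SE 0.11). It did not pass without the doubtful BeadChips. Lgals9 was at -0.11 (SE 0.15), Lgals8 at -0.16 (SE 0.08), and Lgals3bp, a glycoprotein that binds galectin-3, at 0.28 (SE 0.13), and none of these passed. The share of all genes that passed in either direction was 8.47%.

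Chemokines, which guide white blood cells into tissue, were higher in strong strains for 10 of 26 ligands and receptors and lower for 0. The shares over all genes were 5.20% and 3.27%. Ccl8, a ligand that attracts monocytes, had a difference of 2.02 ± 1.25 in strong strains (-0.30, 1.89 and 4.71) and 0.15 ± 1.07 in weak strains (-2.16, 0.18 and 2.68), a gap of 1.86 (SE 0.31). The strong strains were above 0 in 27 of 29 and the weak in 18, and the groups overlapped. Ccl4 was higher by 1.03 (SE 0.19), Ccl12 by 0.91 (SE 0.25) and Ccl9 by 0.79 (SE 0.18). Cxcl16, a chemokine that also serves as a scavenger receptor, was at 0.80 ± 0.58 in strong and -0.20 ± 0.56 in weak strains. Ccl2, the main ligand of the monocyte receptor Ccr2, did not pass between the groups and was detected on 13 of 30 ISO arrays of strong and 5 of 32 of weak strains, and Ccr2 was detected on 0 arrays of the groups. The count was 5 of 26 without the doubtful BeadChips.

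Complement genes were higher for 4 of 12, where 5.20% of all genes were. C1qb, a subunit of the recognition molecule C1q that macrophages make, was at 0.75 ± 0.38 in strong strains (0.17, 0.68 and 1.63) and 0.01 ± 0.47 in weak strains (-1.11, -0.04 and 0.81), and it was above 0 in all 29 strong and 13 weak strains. C1qa was higher by 0.85 (SE 0.13) and Serping1, which encodes the C1 inhibitor, by 0.57 (SE 0.10). All 4 also passed without the doubtful BeadChips. MHC class II genes, which present antigen to T cells, had a median gap of 0.59, yet 3 of 10 passed, H2-DMb1 (0.78, SE 0.19), H2-Ab1 (0.78, SE 0.26) and the costimulatory Cd86 (0.54, SE 0.16), and 0 of 10 passed without the doubtful BeadChips.

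Markers of other blood cells were compared too, where 8.47% of all genes passed in either direction. Of 13 neutrophil genes 0 passed, with summed levels of 431 to 7410 in ISO hearts of strong and 433 to 1900 in those of weak strains (medians 635 and 610). Of 8 B cell genes 0 passed, and Pax5 was not detected on nearly all arrays. Of 7 mast cell genes and 4 red blood cell genes 0 passed. Of 15 genes of T and NK cells 1 passed as higher, Il7r, a cytokine receptor of lymphocytes, which was detected on 3 control and 13 ISO arrays of strong strains and on 13 and 9 of weak strains. Cd28, a costimulatory receptor of T cells, passed as lower, and was detected on 28 and 19 arrays of strong and on 22 and 20 of weak strains. It passed neither without the doubtful BeadChips nor without the arrays of low connectivity. The T cell receptor genes Cd3d, Cd3e and Cd3g did not pass and were detected on at most 13 arrays of any group and condition.

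**Figure D3:**
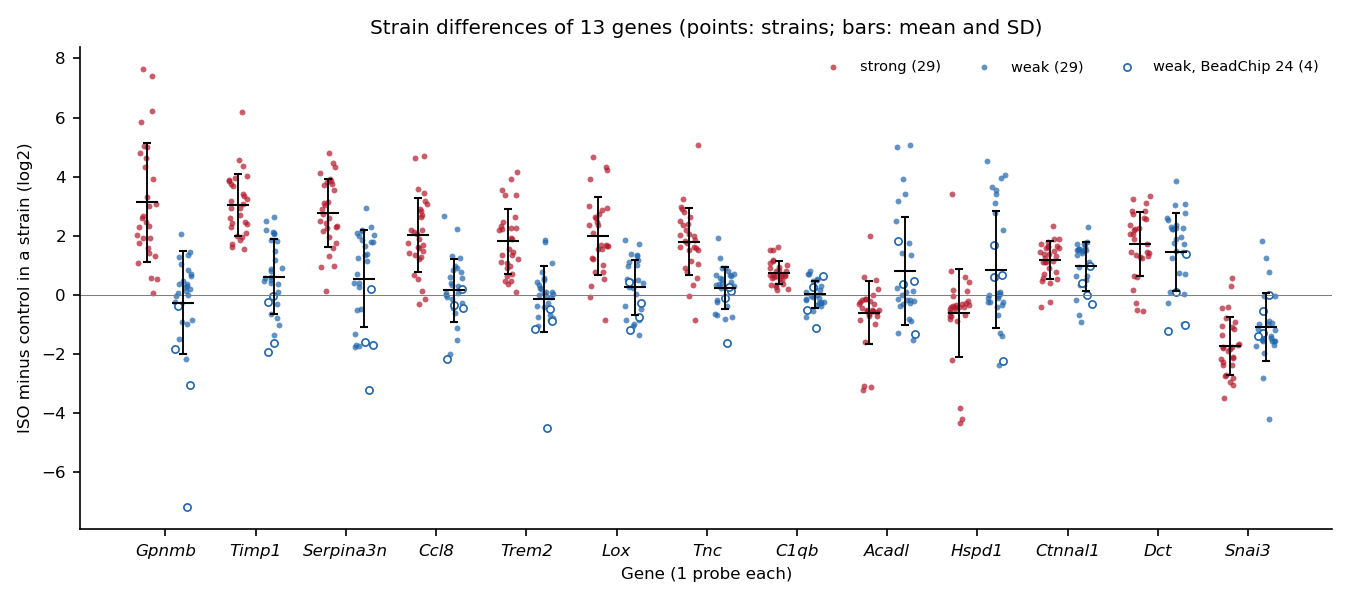
ISO minus control difference (log2) of 13 genes in each of the 29 strong (red) and 29 weak strains (blue, with the 4 strains of BeadChip 24 as open circles); bars give the mean and SD. The groups overlap at every gene, Gpnmb and Trem2 have their lowest value in a strain of BeadChip 24, and Acadl and Hspd1 have long tails upward in weak and downward in strong strains.

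Secreted inhibitors of proteases were among the most different genes. Timp1, an inhibitor of matrix metalloproteinases, had a difference of 3.04 ± 1.05 in strong strains (1.56, 2.95 and 6.19) and 0.61 ± 1.27 in weak strains (-1.92, 0.56 and 2.63), and strong strains were higher by 2.43 (SE 0.31) at this probe and by 2.41 at the other. All 29 strong strains and 20 weak strains were above 0. Serpina3n, an inhibitor of serine proteases, was at 2.77 ± 1.16 (0.11, 2.72 and 4.79) and 0.55 ± 1.63 (-3.24, 1.15 and 2.95), a gap of 2.22 (SE 0.37). The gaps of Timp1 and Serpina3n were 1.88 and 1.72 without the doubtful BeadChips. Within the 3 sets of BeadChips, Timp1 had gaps of 1.23, 2.21 and 2.58 and Serpina3n of 0.87, 2.02 and 2.90, and each passed in the second set alone. Of 24 matrix proteases and inhibitors 9 were higher, beside 5.20% of all genes, among them Mmp14, a membrane-bound collagenase (1.09, SE 0.15), and Mmp23 (0.92, SE 0.15).

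Genes of fibroblasts were higher in strong strains for 11 of 18 and lower for 0, where 5.20% and 3.27% of all genes were. Their median difference with ISO was 0.52 in strong and 0.20 in weak strains. Between the groups their median was 0.15 lower in control hearts and 0.36 higher in ISO hearts of strong strains. Between ISO hearts 2 of the 18 passed as higher, beside 0.514% of all probes. Pi16, a marker of adventitial fibroblasts, was at 0.94 ± 0.50 in strong and 0.05 ± 0.60 in weak strains (gap 0.89, SE 0.14). Mfap5, a glycoprotein of microfibrils, was at 1.41 ± 0.74 and 0.27 ± 0.73, and it was above 0 in all 29 strong strains (0.13, 1.40 and 3.24) and in 21 weak strains (-1.12, 0.35 and 1.49). The count without the doubtful BeadChips was 10 of 18. The summed level of the 18 genes had a median of 34400 (19100 to 57700) in ISO hearts of strong and 26400 (18400 to 39400) in those of weak strains, against 24000 and 24400 in control hearts.

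Collagens were also higher. Of 16 measured, 8 were higher in strong strains and 0 lower, where 5.20% and 3.27% of all genes were. Between the groups the median of the list was 0.17 lower in control hearts and 0.15 higher in ISO hearts of strong strains. Between ISO hearts 2 of the 16 passed as higher, beside 0.514% of all probes. Col3a1, a fibrillar collagen of the interstitium, was at 1.27 ± 0.72 in strong strains (-0.04, 1.24 and 2.72) and 0.26 ± 0.69 in weak strains (-1.14, 0.44 and 1.52), a gap of 1.01 (SE 0.19). Col1a1, the main chain of type I collagen, was at 1.22 ± 1.16 and 0.18 ± 0.72 (gap 1.05, SE 0.25). Col16a1, a fibril-associated collagen, was higher by 1.10 (SE 0.16), Col1a2 by 0.88 (SE 0.17) and Col5a1, which seeds type I fibrils, by 0.69 (SE 0.11). Col4a2, of the basement membrane, and Col5a3 did not pass (0.06 and 0.02).

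Among enzymes that process collagen, 5 of 16 were higher, where 5.20% of all genes were. Between the groups the median of this list was 0.15 lower in control hearts and 0.09 higher in ISO hearts of strong strains. Lox, which cross-links collagen and elastin, was at 2.00 ± 1.33 in strong strains (-0.85, 1.70 and 4.68) and 0.25 ± 0.92 in weak strains (-1.35, 0.41 and 1.84), with 27 and 19 of 29 strains above 0 and a gap of 1.74 (SE 0.30). Its relative Loxl1 was higher by 0.86 (SE 0.11) and the lysyl hydroxylase Plod3 by 0.51 (SE 0.10). Elastic fiber and proteoglycan genes passed in 10 of 18, all higher, as did 7 of 19 matricellular and myofibroblast genes. Fbln1 (fibulin 1) was higher by 0.96 (SE 0.15), the proteoglycan Bgn by 0.63 (SE 0.12) and Thbs2, a thrombospondin, by 0.85 (SE 0.14). Comp, another thrombospondin, was at 1.61 ± 1.16 in strong and -0.34 in weak strains (gap 1.95, SE 0.31). The 6 probes of Tnc, the matrix protein tenascin C, disagreed, with 1.57 (SE 0.25) at the probe of the largest gap, 1.43 at another and -0.04 to 0.16 at the other 4. The first of these was detected on 15 control and 28 ISO arrays of strong and on 18 and 24 of weak strains. Postn (periostin) was not detected on nearly all arrays.

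Other secreted proteins had large gaps without belonging to these lists. Ptn, a heparin-binding growth factor, was at 1.51 ± 0.81 in strong strains and 0.07 ± 0.87 in weak strains, and was above 0 in all 29 strong strains (0.08, 1.37 and 3.07) and in 13 weak strains (-1.48, -0.07 and 2.44). Ecrg4 was at 1.95 ± 1.71 and -0.35 ± 1.78 (gap 2.30, SE 0.46), Angptl7, an angiopoietin-like protein, at 1.63 ± 1.71 and -0.43 ± 1.75 (gap 2.06, SE 0.45) and Dkk3, a glycoprotein of the Dickkopf family, at 1.35 ± 1.74 and -0.31 ± 1.38 (gap 1.66, SE 0.41). The probe of Ecrg4 was detected on 16 of 33 control arrays and 30 of 30 ISO arrays of strong strains. In these 3 genes single strong strains were as low as -2.75, -1.65 and -3.92.

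Of 19 genes of TGF-β signaling 5 were higher, among them the ligand Tgfb3 (0.88, SE 0.14), Ltbp3, which holds latent TGF-β in the matrix (0.76, SE 0.12), and the TGF-β-induced matrix protein Tgfbi (0.69, SE 0.15). Of 19 acute-phase and IL-6 response genes 4 were higher, where 5.20% of all genes were. Socs3, a feedback inhibitor of cytokine receptors, was at 1.27 ± 0.61 in strong and 0.29 ± 0.67 in weak strains, and Osmr, the oncostatin M receptor, had a gap of 0.62 (SE 0.14). Lysosomal genes were higher for 13 of 23 and lower for 0, with Ctsz, a cathepsin, at 0.97 (SE 0.16), Gusb, the β-glucuronidase, at 0.66 (SE 0.10) and Hexa, a hexosaminidase, at 0.53 (SE 0.09). Without the doubtful BeadChips 7 of the 23 passed. Between ISO hearts 1 of the 23 passed as higher, beside 0.514% of all probes. Of 18 actin regulators of white blood cells 10 were higher. Capg, which caps actin filaments, was at 1.28 ± 0.60 in strong and -0.15 ± 0.83 in weak strains (gap 1.43, SE 0.19), Coro1a (coronin 1A) had a gap of 1.13 (SE 0.16) and Cotl1 one of 1.07 (SE 0.14). Interferon-stimulated genes passed in 1 of 23 (Ifi27, 0.35, SE 0.10) and genes of mitosis in 0 of 26, where 8.47% of all genes passed.

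Genes of mitochondrial metabolism were among those with a lower ISO minus control difference in strong strains. Between the groups the median of the fatty acid oxidation list was 0.23 higher in control hearts and 0.12 lower in ISO hearts of strong strains. In control hearts 0 of its genes passed. Of 26 genes of fatty acid oxidation 11 were lower in strong strains and 0 higher, with a median gap of -0.30, where 3.27% of all genes passed as lower. With ISO, 16 of the 26 were lower in strong strains and 1 in weak strains, where 5.13% and 1.06% of all genes passed as lower. Eci2, an enoyl-CoA isomerase, was at -0.44 ± 0.31 in strong strains (-0.95, -0.49 and 0.34) and at 0.00 ± 0.34 in weak strains (-0.82, 0.00 and 0.66), with 3 strong and 15 weak strains above 0 (gap -0.44, SE 0.09). Hadhb, a subunit of the trifunctional protein, was at -0.56 ± 0.45 and 0.07 ± 0.65 and above 0 in 1 strong and 13 weak strains. Etfdh, which passes electrons from fatty acid oxidation to ubiquinone, was at -0.47 ± 0.60 in strong and 0.53 ± 1.12 in weak strains. Acadm, the medium-chain acyl-CoA dehydrogenase, had a gap of -0.61 (SE 0.16). Cpt1b, which admits fatty acids to the mitochondrion, did not pass (-0.01, SE 0.07), nor did Ppara (-0.06, SE 0.16) and Ppargc1a (0.11, SE 0.26), regulators of these genes.

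The largest gaps on this side came with a wide spread between strains. Acadl, the long-chain acyl-CoA dehydrogenase, was at -0.60 ± 1.07 in strong strains (-3.24, -0.51 and 1.98) and 0.81 ± 1.83 in weak strains (-1.52, 0.13 and 5.08), a gap of -1.41 (SE 0.39). The highest weak strains were AXB-4/PgnJ (5.08), AXB-6/PgnJ (4.99), BXD-11/TyJ (3.92) and CXBH (3.41), and the lowest strong strains were BXA-8/PgnJ (-3.24), AXB-19/PgnJ (-3.13) and BXD79/RwwJ (-3.08), of which AXB-4/PgnJ, AXB-6/PgnJ and AXB-19/PgnJ had an array of low connectivity. All of these weak strains, and BXA-8/PgnJ, had their arrays in the third set of BeadChips. The other Acadl probes were at -0.29 and -0.15 and did not pass. Acaa2, the thiolase of the same pathway, was at -0.60 ± 1.06 in strong and 0.89 ± 1.95 in weak strains, and its level in control hearts was 1.25 higher in strong than in weak strains, with a gap of -0.24 in ISO hearts. Within the sets of BeadChips, in the same order, Acaa2 had gaps of -0.28, -0.77 and -3.72. Hspd1, the mitochondrial chaperonin, had a gap of -1.47 (SE 0.46) at this probe and -0.52 at another. Within the sets Hspd1 had gaps of -0.72, -0.84 and -3.81 at the first probe. It did not pass without the arrays of low connectivity, nor did Etfa, Rbbp7, Ppp1cb, Pfkm and Mrpl3, all among the 12 lowest.

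Of 29 genes of the TCA cycle and of branched-chain amino acid breakdown 8 were lower and 0 higher. The shares over all genes were 3.27% and 5.20%. Between the groups the median of this list was 0.10 higher in control hearts and 0.14 lower in ISO hearts of strong strains. Fh1, the fumarase, was at -0.36 ± 0.27 in strong strains (-0.96, -0.33 and 0.20) and 0.07 ± 0.48 in weak strains (-0.55, -0.04 and 1.66). Mdh2, the malate dehydrogenase of mitochondria, had a gap of -0.29 (SE 0.07) and Pcca, a subunit of propionyl-CoA carboxylase, one of -0.48 (SE 0.12). Of 39 genes of the respiratory chain 6 were lower, with Ndufa5 and Ndufs3, of complex I, at -0.28 (SE 0.07) and -0.52 (SE 0.16). With medians aligned 0 of the fatty acid, TCA and respiratory genes passed, although no median of these lists changed sign. With a covariate for the set of BeadChips 3, 1 and 0 passed. The counts were 6, 5 and 3 without the doubtful BeadChips. Within the first set of BeadChips 0 genes of these lists passed, and the median gaps were 0.008, -0.002 and -0.006. In classical strains the fatty acid list had a median of -0.086 and 0 passed. The share of detected probes was 38.1% and 39.2% in control hearts of AXB-4/PgnJ and AXB-6/PgnJ and below the weak mean of 45.6% in those of BXD-11/TyJ and CXBH, the 4 weak strains highest in Acadl, and it was 31.7% in ISO hearts of AXB-19/PgnJ, a strong strain at the low end. With the difference in detected share as a covariate, 2346 probes passed between the groups, 1212 higher and 1134 lower in strong strains. Of 98 named probes that passed between the groups, 97 passed then. The lists were not counted in that fit, and the part of the detected share in them was not tested.

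Calcium cycling genes and ion channels of the cardiomyocyte were lower in strong strains for 9 of 24 and higher for 0, with a median gap of -0.32. The shares over all genes were 3.27% and 5.20%. Between the groups the median of the list was 0.28 higher in control hearts and 0.06 lower in ISO hearts of strong strains, and 0 of the 24 passed in either. Kcnip2, an auxiliary subunit of the transient outward potassium channel, had a gap of -1.03 (SE 0.25), Ryr2, the calcium release channel, one of -0.71 (SE 0.23) and Pln, phospholamban, the brake of the calcium pump, one of -0.53 (SE 0.15). Asph, which also encodes junctin, was at -0.45 ± 0.47 in strong strains (-1.44, -0.36 and 0.55) and 0.32 ± 0.63 in weak strains (-1.01, 0.08 and 1.44), with 3 and 19 strains above 0. Kcnj2, an inward rectifier channel, was at -0.30 ± 0.67 in strong and 0.50 ± 0.71 in weak strains, and it passed with ISO in weak strains alone. Atp2a2, the calcium pump itself, did not differ past the thresholds (-0.01, SE 0.03). Without the doubtful BeadChips 7 of 24 passed and with medians aligned 3.

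β-adrenergic signaling genes were mixed, with 3 of 24 higher and 1 lower, where 5.20% and 3.27% of all genes were. Arrb2 and Arrb1, the arrestins that uncouple the receptor, were higher by 0.77 (SE 0.14) and 0.42 (SE 0.11), and Pde1a, a phosphodiesterase, by 0.77 (SE 0.14). Gnb3, a G protein β subunit, was lower in ISO hearts of both groups, at -1.46 ± 0.70 in strong strains (-2.72, -1.55 and 0.36) and -0.59 ± 0.96 in weak strains (median -0.85, highest 1.32). Its gap of -0.87 (SE 0.22) was -0.44 without the doubtful BeadChips and then did not pass. Grk5, a receptor kinase, and Pde4d passed with ISO in both groups and had gaps of -0.12 (SE 0.26) and 0.06 (SE 0.12).

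Of 14 fetal genes, used as markers of cardiac hypertrophy, 0 passed, beside 8.47% of all genes. Nppa, the atrial natriuretic peptide, was at 0.31 ± 1.32 in strong strains and -0.59 ± 1.41 in weak strains (gap 0.90, SE 0.36), Nppb, the B-type peptide, at 0.34 ± 0.81 and 0.07 ± 0.71, and Myh7, the slow myosin heavy chain, at -0.79 ± 0.93 and -0.31 ± 1.44. Nppa alone of these passed without the doubtful BeadChips, with 1.23. Of 21 sarcomere genes Tpm1 was higher (0.44, SE 0.12) and Ldb3 (-1.23, SE 0.35), Tmod1 (-0.48, SE 0.16) and Cryab (-0.33, SE 0.10) were lower. Tpm1 and Ldb3 passed without the doubtful BeadChips as well. Without the arrays of low connectivity none of the 3 lower genes passed. Cytosolic ribosomal proteins passed in 3 of 23, Rpl3 (0.48, SE 0.07), Rplp0 and Rpl19, each of which also passed as lower with ISO in weak strains. Endothelial genes passed in 2 of 19 (Eng, 0.45, and Sox17, 0.41), genes of smooth muscle and pericytes in 2 of 15 (Notch3, 0.54, and Abcc9, -0.55), genes of the epicardium in 1 of 12 and fat genes in 0 of 13, where 8.47% of all genes passed. The epicardial gene was Krt18, a keratin detected on 4 control and 18 ISO arrays of strong and on 10 and 16 of weak strains. Eng, Notch3, Abcc9 and Krt18 did not pass without the doubtful BeadChips, and Sox17 and Notch3 lost their call on leaving out any of 35 and 30 of the 58 strains.

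Markers of atrial and skeletal muscle, which an LV sample can carry along, were compared too, where 8.47% of all genes passed. Of 11 atrial genes Dkk3 alone passed, but the median gap was 0.46, and the atrial light chains Myl7 and Myl4 and the calcium pump inhibitor Sln had gaps of 1.48 (SE 0.83), 1.30 (SE 0.67) and 1.73 (SE 0.90). The probe of Myl7 was detected on 11 to 17 arrays of each group and condition and that of Sln on 13 to 21. Their summed level, over the 11 genes, had medians of 18900 and 26200 in control and ISO hearts of strong strains and of 27700 and 15900 in those of weak strains, with ranges from 1860 to 96300. Of 13 genes of fast skeletal muscle Pvalb (parvalbumin) alone passed, at 1.41 (SE 0.38), and not without the doubtful BeadChips, with detection on 12 to 23 arrays of each group and condition. The part of atrial or skeletal muscle tissue in the results was not tested.

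**Figure D4:**
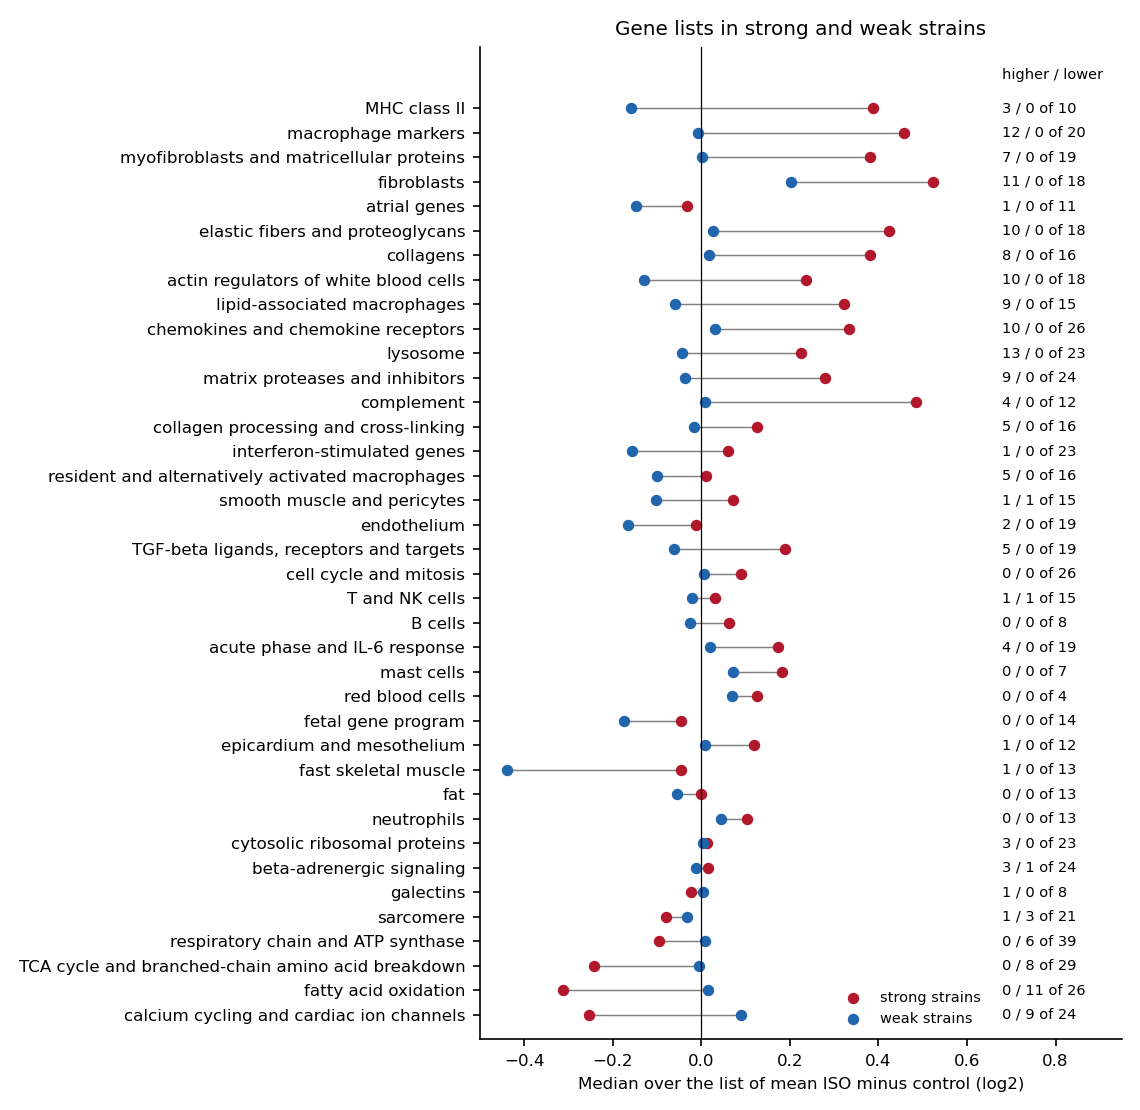
Median over each gene list of the mean ISO minus control difference (log2) in strong (red) and weak strains (blue), ordered by the median gap per gene, with the number of members that passed as higher or lower in strong strains at the right. Macrophage markers have medians of 0.46 and -0.01, fibroblast genes of 0.52 and 0.20 and fatty acid oxidation genes of -0.31 and 0.01.

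Of the 351 probes that passed with ISO in weak strains, 143 also passed in strong strains, and 288 did not pass between the groups. Those of the next 6 genes passed with ISO in both groups. Ctnnal1, a relative of α-catenin, was at 1.18 ± 0.63 in strong strains (-0.41, 1.32 and 2.32) and 0.96 ± 0.82 in weak strains (-0.93, 1.35 and 2.28), with 27 and 24 of 29 strains above 0 and a gap of 0.21 (SE 0.19). Dct, an enzyme of melanin synthesis, was at 1.71 ± 1.09 and 1.46 ± 1.32 (gap 0.25, SE 0.32). Snai3, a relative of the transcriptional repressor Snail, was at -1.73 ± 0.98 and -1.09 ± 1.15, Retnla, which encodes the resistin-like protein Fizz1, at -1.33 ± 1.19 and -0.85 ± 1.17, Tmem82 at -1.23 ± 0.69 and -0.90 ± 1.09 and Acot1, an acyl-CoA thioesterase, at -1.13 ± 0.79 and -0.72 ± 1.03. S100a8, a calcium-binding protein of neutrophils, was at 0.76 ± 1.79 in strong and 0.98 ± 1.25 in weak strains, and it passed with ISO in weak strains alone. A gap that did not pass does not show that the groups responded alike.

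Levels in each condition place these gaps. Between control hearts of strong and weak strains 0 of 25696 probes (0%) passed in limma, with 5746 at an unadjusted p under 0.05. These 5746 held 1374 of the 1947 probes that passed between the groups in their ISO minus control difference. The count of 0 therefore does not show that the control hearts were alike. Between ISO hearts 144 (0.560%) passed, 132 (0.514%) higher and 12 (0.0467%) lower in strong strains. The ranking used both levels of Lgals3, so these counts too are descriptive. Timp1 was 1.56 higher in ISO hearts and 0.87 lower in control hearts of strong strains. Gpnmb was 2.47 higher in ISO and 0.93 lower in control hearts, and Lox 1.16 higher and 0.59 lower. Acadl was 0.31 lower in ISO and 1.10 higher in control hearts. The count in ISO hearts fell to 82 without BeadChip 24 and to 4 without all doubtful BeadChips.

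The middle strains belong to neither group, though the same ranking placed them, and they span a narrower range of Lgals3. Their Lgals3 differences came from the same arrays as those of the other probes. Array or pool error shared by both therefore enters the slopes. Each probe was regressed on the Lgals3 difference over the 29 middle strains, whose differences ran from 1.01 to 2.25. After Benjamini-Hochberg adjustment 0 of 25696 probes passed in limma (0% of the probes), with 783 at an unadjusted p under 0.05 and a smallest adjusted p-value of 0.839. Dpep2, a membrane dipeptidase with that adjusted p-value, had a slope of 1.09 (SE 0.23) per unit of Lgals3 difference and a gap of 1.14 between strong and weak strains, where it was detected on 14 of 33 control and 28 of 30 ISO arrays of strong strains. Timp1 had a slope of 1.05 (SE 0.42) and Gpnmb one of 1.45 (SE 0.72), each with an adjusted p-value of 0.9999 in limma. Of the 1947 probes that passed between strong and weak strains, 65.3% had a slope of the same sign as their gap. Among all probes the share was 51.2%, and the difference between these shares was not tested. Wwtr1, a transcriptional coactivator, went the other way, with a slope of 0.52 and a gap of -0.42.

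**Figure D5:**
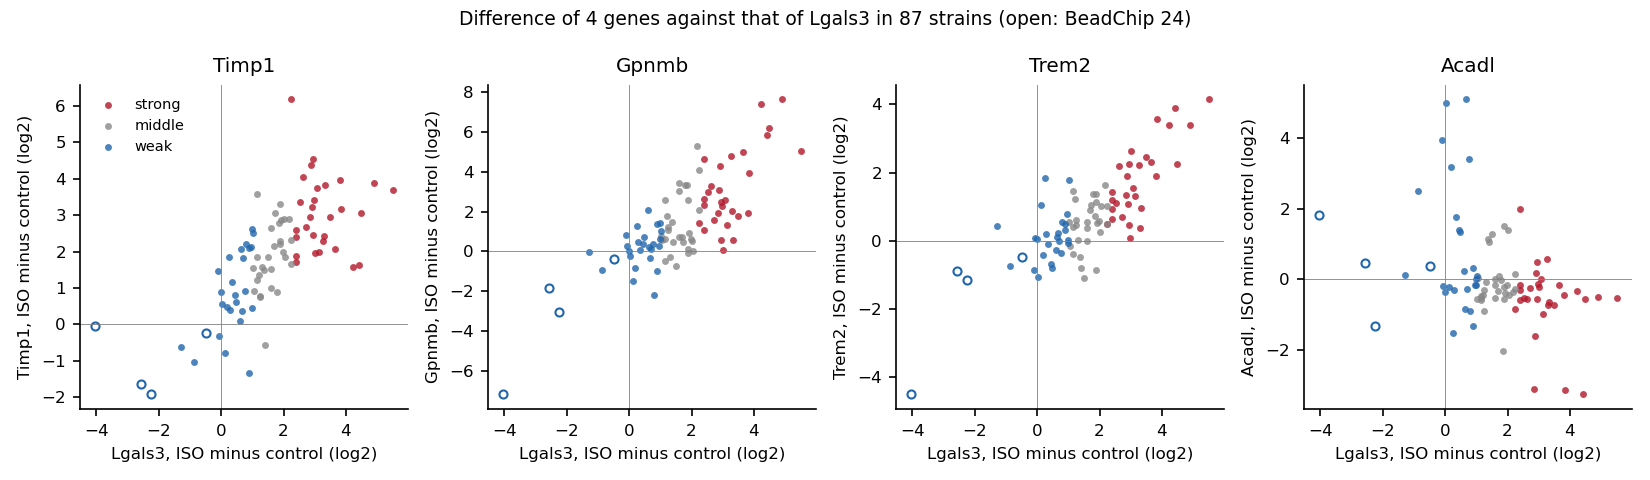
ISO minus control difference (log2) of Timp1, Gpnmb, Trem2 and Acadl against that of Lgals3 in 87 strains, with strong strains in red, middle strains in gray, weak strains in blue and strains of BeadChip 24 open. Gpnmb and Trem2 reach their lowest values, -7.19 and -4.50, in the strain with the lowest Lgals3 difference, and Acadl spreads upward to 5.08 among weak strains.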

How the data were processed

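LV RNA of 208 pools of mice was measured on Illumina MouseRef-8 v2.0 BeadChips. The deposited intensity values were exported by the authors from GenomeStudio 2010.3 without normalization, and the deposited detection p-values come from the same export. To make the deposited log2 values the authors used limma's neqc function (background correction, quantile normalization, log2). These log2 values were used here for 25697 gene probes, 23978 with 1 gene symbol and 1719 with none. Probes over SNPs were kept, and 829 control probes were not used. Recomputing neqc (offset 16) gave a median absolute difference of 0.00057.

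Strains and conditions came from the labels, a mean was taken over repeat arrays, and ISO minus control differences within a strain (the strain is the pair) were compared by limma 3.58.1 (R 4.3.3 and version 1.17.8 of data.table), with Benjamini-Hochberg adjustment, thresholds of 0.05 and 0.2. Composition was compared by Fisher's exact test. Standard errors cover the spread between strains, and the number of arrays limits the precision. Probes were called detected at a detection p-value under 0.05. The fit of strong against weak strains and that of the slope over middle strains were run on simulated data with known shifts. The other steps were not simulated.

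The genes named are the 12 largest and 12 lowest gaps (predicted genes left out, and a single probe for each gene) and at most 3 members for every list. Also named are a panel of genes of ISO hearts and the 6 smallest p-values of the middle strains. The last are the 5 largest changes in each direction with ISO in weak strains, among probes that passed there and not between the groups. Other list members were named after their values were seen. For lists the probe of the highest mean stood for a gene. Spp1 and Cd68 of the panel and lists are not on the annotation used here. The strains, lists and tests were chosen with earlier results of these data known. Alternatives were other normalizations, filters and ways of dividing the strains, subsets of arrays and strains, covariates and an unpaired fit. Fits without BeadChip 24, with identity-matched pairs only and with strains ranked again were added after seeing the data.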

Additional observations from a re-analysis of the deposited data

How the results depend on the processing

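The count of 1947 probes between strong and weak strains moved by over 1.5 times under several settings. It was 572 with medians aligned, 1179 with first arrays only, 1215 without the doubtful BeadChips, 631 with a covariate for the set of BeadChips, 0, 449 and 31 within sets 1, 2 and 3, and 0 in classical strains only (1549 at an unadjusted p under 0.05 in limma). Settings chosen after seeing the data gave 319 with identity-matched pairs and 3214 with the 80 strains left without the doubtful BeadChips ranked again (26 in each group). In the fit without strain as a block, which ignores the pairing, 377 passed (308 higher, 69 lower). Other settings gave 1514 to 2624. Shared with the 1947 were 555 of the calls with medians aligned, 1023 without the doubtful BeadChips, 629 with the covariate and 250 of the identity-matched pairs. Leaving out single strains gave 1473 to 2726, the lowest without AXB-6/PgnJ and the highest without NOD/LtJ. The subsets hold fewer strains. The cause of the other shifts was not tested.

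The count with ISO in weak strains, 351, was 965 with detected probes only, 1070 without the doubtful BeadChips, 182 without arrays of low connectivity and 851 without BeadChip 24. The 144 probes between ISO hearts became 4 without the doubtful BeadChips and 82 without BeadChip 24. The middle strains gave 0 under 16 alternatives and on leaving out each of their strains (0 to 0). Within set 3 no value could be had, and no value was computed for them with other divisions of the strains, identity-matched pairs, the new ranking or no pairing. With strains divided into 43 against 43 the adjusted exact p-values were 0.0105 for arrays on a doubtful BeadChip and 0.0085 for arrays that resemble each other best.

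Within the first set of BeadChips the gap changed sign for Mrpl3 (0.0465), Stab1 (-0.0311), Igf1 (-0.0378), Serping1 (-0.0296), Thbs2 (-0.0274), Osmr (-0.42), Pde1a (-0.0879), Hadhb (0.000464), Mdh2 (0.0800), Pcca (0.19), Notch3 (-0.19) and Wwtr1 (0.11), and in classical strains for Hadhb (0.0383). Of 98 named probes that passed between the groups, 79 passed without the doubtful BeadChips, 85 without arrays of low connectivity, 62 with the covariate for the set and 56 with medians aligned. All fits called without the doubtful BeadChips kept the groups of the main ranking. With strains ranked again without those BeadChips, 92 of the 98 passed. Lost in the main groups without the doubtful BeadChips were Rbbp7, Igf1, Lgals1, H2-DMb1, Cd86, H2-Ab1, Cd28, Cryab, Gnb3, Mdh2, Ndufs3, Rplp0, Rpl19, Eng, Abcc9, Notch3, Krt18, Pvalb and Wwtr1. These 98 are the probes named by the rule. Of further list members in the text, Adgre1, Cd9, Ccl12, Ryr2, Arrb1, Acadm and Tmod1 were lost too. On leaving out a single strain the call was lost for Mrpl3 (7 of the 58 strains), Hspd1 (8), Rpl19 (12), Rbbp7 (17), Pfkm (18), Notch3 (30), Cd28 (33), H2-Ab1 (35), Sox17 (35) and Wwtr1 (37). Array signal over background limits Mmp12, Postn, Pax5, Il7r and Krt18, and in part Gpnmb, Comp, Trem2, Tnc, Ecrg4, Dpep2, Ccl4, Ccl8, Cd28 and Pvalb, which were not detected on part of the arrays.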

Other observations

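Strains with arrays of a single condition could not be ranked. Lgals3 was between 7.20 and 8.47 on the log2 scale in the 6 control-only strains. In the 6 ISO-only strains it was 6.77 in MA/MyJ, 7.50 in BXHA1, 7.70 in BXD-6/TyJ, 9.86 in BXD-31/TyJ, 10.17 in C58/J and 10.38 in BXD-19/TyJ.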
